A study of Mus musculus with 10 samples.

Results

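The respiratory chain was examined in mouse liver tumors and normal liver through every gene of the expression table whose symbol names a chain subunit or a close relative of one. The symbols begin with Nduf, Uqcr, Cox4 to Cox8 or Atp5, are one of Sdha, Sdhb, Sdhc and Sdhd, or are mitochondrial names that begin with mt-Nd, mt-Co, mt-Cytb or mt-Atp. This gave 110 of 16697 genes with a symbol, chosen by name and not by their values. They comprised 76 nuclear-encoded subunits, 13 subunits encoded in mitochondrial DNA, 6 tissue-restricted isoforms, 9 assembly factors, 5 copies or pseudogenes and Atp5s, a coupling factor set apart from the subunits. The nuclear subunits were 37 of complex I, 4 of complex II, 8 of complex III, 11 of complex IV and 16 of complex V. Ndufa4 was counted with complex IV, where its protein resides.

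RNA sequencing covered 4 wild-type normal livers (NL), 3 c-MYC tumors and 3 c-MYC/FOXO1AAA tumors. Both kinds of tumor arose from plasmids under the EF1α promoter that were driven into hepatocytes by hydrodynamic tail vein injection, so all tumors were made with c-MYC. The c-MYC tumors received an empty vector (pT3) beside it, and the others received FOXO1AAA, a MYC-tagged mutant of the transcription factor FOXO1 that stays active. The comparisons ask how the tumors differ from normal liver and what active FOXO1 changes in them. The sample labels give the strain C57BL/6 and the genotype WT for every sample, whereas the extraction protocol names FVB livers. The description of the control tumors also differs between sources, of which some name MCL1 as injected too. Sex and age are not given by sample, and the labels name no animals. The study's methods give the numbers of samples as mice or normal livers.

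The respiratory chain passes electrons from NADH and succinate to oxygen across the inner mitochondrial membrane and uses the resulting proton gradient to make ATP. Complex I takes electrons from NADH, complex II takes them from succinate, complex III passes them from ubiquinone to cytochrome c, and complex IV hands them to oxygen. Complex V is the ATP synthase. Complex II is built from nuclear genes alone, whereas the other complexes combine nuclear subunits with a few that mitochondrial DNA encodes and mitochondria translate. Liver normally holds many mitochondria, and nuclear and mitochondrial transcripts are made by separate polymerases.

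Levels are given as FPKM, fragments scaled to gene length and to the size of the library. Libraries held 13123695 to 20547715 reads in listed genes. The library sizes had been rescaled by the authors with a factor of 0.649 to 0.684 in NL, 1.26 to 1.29 in c-MYC and 1.45 to 1.5 in c-MYC/FOXO1AAA. This factor decides the direction of many nuclear subunits against NL, and values without it are given beside the results it touches. A gene was called higher or lower when limma's treat test for a change above 1.5-fold gave a Benjamini-Hochberg adjusted p under 0.05 over the 14017 genes tested. All 110 genes were tested. Foxo1 checked the label of the FOXO1AAA group, with means of 7.12 ± 0.532, 5.62 ± 0.721 and 83.1 ± 12.8 FPKM in NL, c-MYC and c-MYC/FOXO1AAA (SD, n = 4, 3 and 3). The mouse Myc gene ran against the injection of c-MYC, with means of 11.1 ± 8.17, 0.704 ± 0.254 and 0.916 ± 0.118 FPKM in the same order. Whether reads of the injected c-MYC were counted under it is not given in the sources used here, so the c-MYC label was not checked by it. The tumors differed from NL in cell content or cell state as well. The summed FPKM of 10 hepatocyte markers lay between 95253 and 106120 in NL, between 3573 and 5458 in c-MYC and between 954 and 1791 in c-MYC/FOXO1AAA. All 10 were called lower in c-MYC versus NL, beside 23.6% of all tested genes. Between the tumors 5 of the 10 were called lower and 2 higher, beside 12.7% and 15.9% of all tested genes. Of markers of other cells, 4 of 6 endothelial and 4 of 4 erythroid genes were called lower in c-MYC versus NL, beside 23.6% of all tested genes. Of 7 stellate cell and fibroblast genes, 3 were called lower and 1 higher there. Between the tumors 5 of these 7 and 1 of 6 endothelial genes were called higher, beside 15.9% of all tested genes. The summed FPKM of the stellate cell and fibroblast genes was 11.5 to 38.4 in c-MYC and 388 to 438 in c-MYC/FOXO1AAA. Macrophage and biliary genes were called in both directions in both comparisons. The part of these markers in the results was not tested, and fewer cells of a type and less RNA per cell cannot be told apart in bulk tissue.

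Mitochondrially encoded genes took a smaller share of the reads in both kinds of tumor than in NL. The nuclear subunits summed together took a larger share in c-MYC, mainly through abundant genes of complex V. Measured as a share of the reads of a library, which scales by total reads in place of the authors' factor, the 13 mt- genes took 6.35%, 7.93%, 6.23% and 5.58% in the NL libraries. They took 3.73%, 2.75% and 3.29% in c-MYC and 3.05%, 2.78% and 3.91% in c-MYC/FOXO1AAA. Every tumor library lay below every NL library, and the tumor groups overlapped. On the same measure the nuclear subunits together took 1.38%, 1.44%, 1.5% and 1.39% of reads in NL, 2.26%, 1.77% and 1.99% in c-MYC and 1.33%, 1.36% and 1.69% in c-MYC/FOXO1AAA. The c-MYC libraries all lay above the other groups, which overlapped each other. By complex, the share of V was 0.496% to 0.533% in NL and 0.843% to 0.990% in c-MYC, and that of II was 0.104% to 0.114% and 0.123% to 0.137%. Abundant genes weigh most in such sums. Within V, Atp5b had 15299 to 21040 reads in NL and 41059 to 43665 in c-MYC, and Atp5a1 14757 to 19238 and 31959 to 35845. Of the 16 subunits of V, 13 lay below the median log2 fold change of all tested genes in c-MYC versus NL. For complexes I, III and IV the groups overlapped, since c-MYC 2 had 0.365% and 0.193% for I and III, within the range of NL, and 0.235% for IV, below every NL library.

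**Figure D1:**
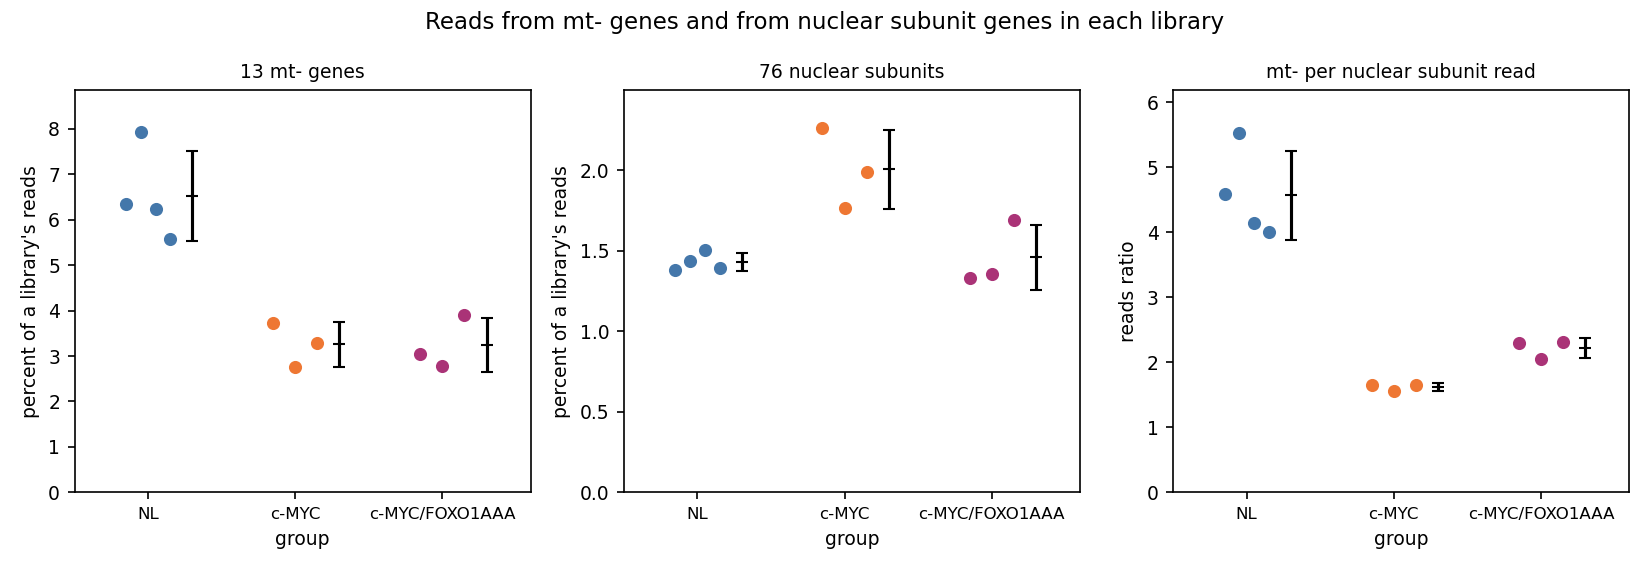
Percent of a library's reads in the 13 mt- genes, percent in the 76 nuclear subunits, and mt- reads per nuclear subunit read, with one point per library and the group mean ± SD beside the points. The tumors lie below NL in the mt- share, c-MYC lies above the other groups in the nuclear share, and the ratio runs from NL at the top through c-MYC/FOXO1AAA to c-MYC.

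The ratio of these shares does not depend on any scaling. There were 4.59, 5.52, 4.14 and 4.01 mt- reads for each nuclear subunit read in NL, 1.65, 1.56 and 1.65 in c-MYC and 2.30, 2.05 and 2.31 in c-MYC/FOXO1AAA. The group means were 4.57 ± 0.685, 1.62 ± 0.0559 and 2.22 ± 0.148 (SD, n = 4, 3 and 3), and no 2 groups overlapped. The same order held for the gap between the median log2 FPKM of the mt- genes and that of the nuclear subunits, with means of 3.95 ± 0.221 in NL, 2.38 ± 0.136 in c-MYC and 3.21 ± 0.124 in c-MYC/FOXO1AAA (SD, n = 4, 3 and 3). These ratios are descriptions and were not tested.

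In c-MYC versus NL, 3 of the 110 genes were called higher and 32 lower, against 24.5% of all tested genes called higher and 23.6% called lower. The nuclear subunits gave 0 higher and 21 lower of 76, and the mt- genes 0 higher and 11 lower of 13. By the limma test without the fold threshold, 2 nuclear subunits (Sdhd and Atp5b) and 0 mt- genes were higher, and by treat 0 of either were higher at an unadjusted p under 0.05. Median log2 fold changes were -0.67 for the nuclear subunits and -2.05 for the mt- genes, beside 0.08 for all tested genes. The nuclear calls rest on the scaling: with all libraries set to the same FPKM total, the median of all genes moved to 1.01, that of the nuclear subunits to 0.26, and 10 nuclear subunits were called higher and 2 lower. Of the 11 mt- genes called lower, 7 remained so under that scaling, and 0 of 13 were called higher. With quantile normalization 4 of the 11 remained, namely mt-Co2, mt-Nd4, mt-Nd6 and mt-Nd4l. Relative to the median of all tested genes, the nuclear subunits stood at -0.75 and the mt- genes at -2.13 on the deposited scale. The same FPKM total leaves these 2 values unchanged by construction, since it adds a constant to every gene. With quantile normalization they were -0.25 and -1.18. The c-MYC libraries differed among themselves, since c-MYC 1 was the highest of its group in 72 of the 76 nuclear subunits and c-MYC 2 the lowest in 67. In 74 of the 110 genes all c-MYC libraries lay below all NL libraries, against 34.9% of all tested genes.

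Adding FOXO1AAA gave a different split. In c-MYC/FOXO1AAA versus c-MYC, 2 of the 110 genes were called higher and 13 lower, against 15.9% and 12.7% of all tested genes. The nuclear subunits gave 0 higher and 10 lower of 76, and the mt- genes 0 called of 13. At an unadjusted p under 0.05 treat also gave 0 mt- genes, and the limma test without the fold threshold gave 1 lower, mt-Nd1. Median log2 fold changes were -0.59 for the nuclear subunits and -0.21 for the mt- genes, and 0.03 for all tested genes. The share of members called lower was near that of all genes and is no result about the chain. The count also turned on single libraries. Without c-MYC/FOXO1AAA 1 there were 7 members called lower, without c-MYC/FOXO1AAA 2 there were 8, and without c-MYC/FOXO1AAA 3 there were 26. Library c-MYC/FOXO1AAA 3 was the highest of its group in 74 of the 76 nuclear subunits. In 48 of the 110 genes all c-MYC/FOXO1AAA libraries lay below all c-MYC libraries, against 30.7% of all tested genes.

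Against NL, c-MYC/FOXO1AAA had 4 members called higher and 79 lower, beside 31.2% and 26.6% of all tested genes. The nuclear subunits gave 0 higher and 62 lower of 76 and the mt- genes 13 lower of 13, with median log2 fold changes of -1.30 and -2.24 beside 0.21 for all tested genes. In 94 of the 110 genes all c-MYC/FOXO1AAA libraries lay below all NL libraries, against 36% of all tested genes. Rescaled to the same FPKM total, 5 nuclear subunits were called lower and 1 higher, 6 mt- genes were called lower, and the medians were -0.20 and -1.15. The comparisons share libraries, those of c-MYC or of NL, so their values are set side by side and are not independent. Differences between complexes were not tested. In the first comparison the median log2 fold changes were -0.76 for complex I, -0.96 for II, -0.32 for III, -0.73 for IV and -0.36 for V, and in the second they were -0.56, -0.80, -1.0, -0.44 and -0.75.

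**Figure D2:**
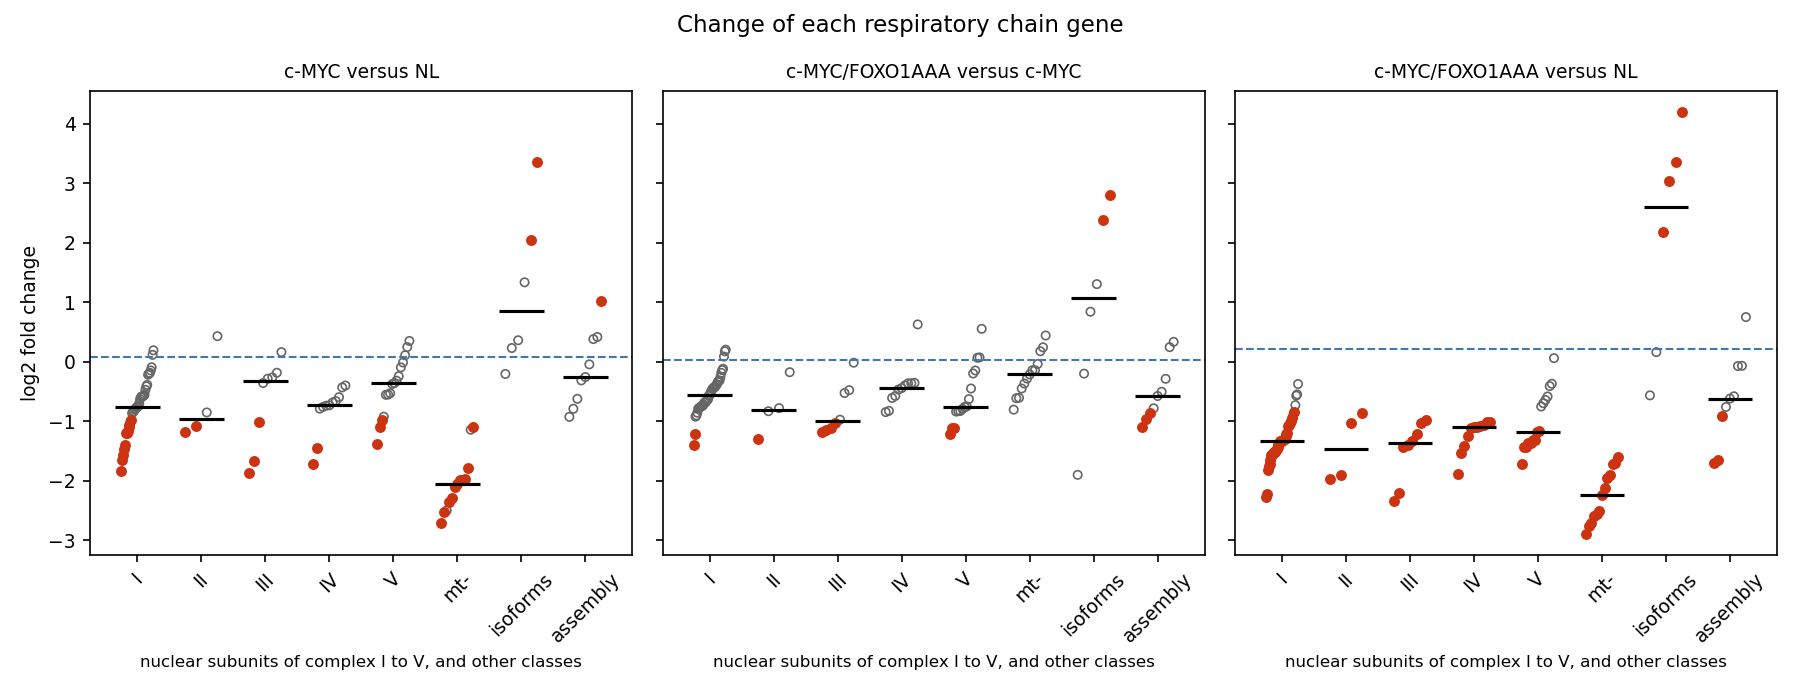
Log2 fold change of the nuclear subunits by complex, the mt- genes, the restricted isoforms of complex IV and the assembly factors in the 3 comparisons. Each point is a gene, filled where it was called, the short bar is the median of its class and the dashed line that of all tested genes. The median of the mt- genes is -2.05 and -2.24 against NL but -0.21 between the tumors, and the restricted isoforms reach 4.20.

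The 13 mitochondrially encoded genes are transcribed from mitochondrial DNA as long precursors and cut into single messages. In c-MYC versus NL the 7 subunits of complex I had a median log2 fold change of -1.96 with 6 called lower, and the 6 subunits of complexes III, IV and V had a median of -2.30 with 5 called lower. mt-Co1, the catalytic subunit of complex IV (chrM:5328-6872, plus strand), stood at 26570, 33790, 26480 and 21982 FPKM in NL, at 7346, 5351 and 6242 FPKM in c-MYC and at 5599, 4817 and 6775 FPKM in c-MYC/FOXO1AAA. All tumor libraries were below all NL libraries and the tumor groups overlapped. Its log2 fold change was -2.10 ± 0.17 (SE, adjusted p = 1.38e-05 by limma) in c-MYC versus NL and -0.14 ± 0.19 (SE, adjusted p = 1 by limma) between the tumors. Under quantile normalization, which sets the top ranks of all libraries to the same values, the sign for mt-Co1 in c-MYC versus NL turned to 0.30.

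mt-Nd4, a proton-pumping subunit of complex I, had 6309, 7604, 5818 and 5543 FPKM in NL, 1424, 1156 and 1307 FPKM in c-MYC and 1042, 998 and 1150.1 FPKM in c-MYC/FOXO1AAA. Against NL it fell by 2.28 on the log2 scale (SE 0.13, adjusted p = 6.28e-07 by limma) in c-MYC, and its tumor groups did not overlap although the difference between them, -0.28, was not past the threshold. mt-Cytb, the cytochrome b of complex III, had 14803, 16528, 12274 and 12112 FPKM in NL, 3829.8, 2942 and 3801 FPKM in c-MYC and 2733, 2914 and 3995 FPKM in c-MYC/FOXO1AAA. For mt-Cytb the log2 fold change was -1.98 ± 0.17 (SE, adjusted p = 2.23e-05 by limma) in c-MYC versus NL and -0.14 between the tumors. Quantile normalization moved the first to -0.24, and the call was lost (adjusted p = 1). mt-Nd6 is the only one of the 13 read from the opposite strand, and it stood at 4584, 4506, 4137 and 3709 FPKM in NL, 927, 808 and 758 FPKM in c-MYC and 971, 882 and 1656 FPKM in c-MYC/FOXO1AAA. In c-MYC versus NL it changed by -2.35 ± 0.20 (SE, adjusted p = 1.04e-05 by limma). The smallest decrease among the called mt- genes was in mt-Nd1, at 11807, 13061, 11373 and 9841 FPKM in NL, 6316, 4553 and 5341 FPKM in c-MYC and 3035, 2939 and 4902 FPKM in c-MYC/FOXO1AAA. The change of mt-Nd1 was -1.10 ± 0.19 (SE, adjusted p = 0.0248 by limma) in c-MYC versus NL, and this call was lost without NL 2 (adjusted p = 0.0574), c-MYC 2 (0.0947) or c-MYC 3 (0.0592). Quantile normalization turned its sign to 0.85.

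**Figure D3:**
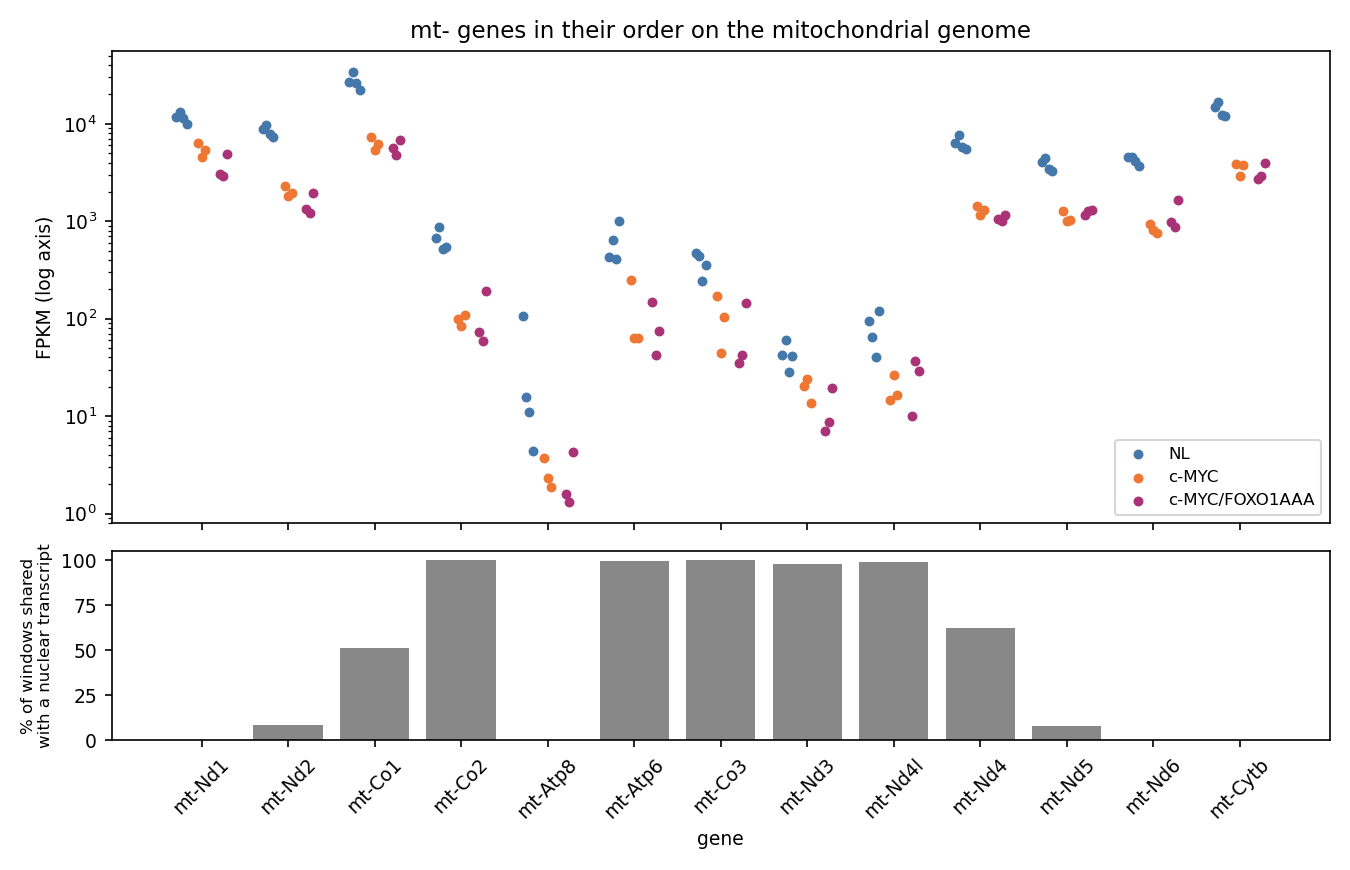
FPKM on a log axis of the 13 mt- genes in their order on the mitochondrial genome (top, one point per library colored by group), and percent of 50-base windows of each transcript that an annotated nuclear transcript also holds (bottom). Of the 6 genes with low levels, all but mt-Atp8 have nearly all windows shared, and in each of the 13 genes the tumor points lie below the NL points.

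The 13 genes did not stand at one level, although they come from shared precursors. In NL the median was 26525 FPKM for mt-Co1, 13539 for mt-Cytb and 11590 for mt-Nd1, but 604 for mt-Co2, 535 for mt-Atp6, 398 for mt-Co3, 79.2 for mt-Nd4l, 41.8 for mt-Nd3 and 13.3 for mt-Atp8. The nuclear genome holds near copies of mitochondrial DNA. Of the windows of 50 bases in each transcript, annotated nuclear transcripts held 100% for mt-Co2, 99.9% for mt-Co3, 99.5% for mt-Atp6, 98.8% for mt-Nd4l and 98.0% for mt-Nd3, but 51.1% for mt-Co1, 62.2% for mt-Nd4 and 0% for mt-Nd1, mt-Nd6 and mt-Cytb. mt-Atp8 had 0% as well and is the shortest of the 13 at 204 bases, and it overlaps mt-Atp6. The copies of the low genes lie next to each other on chromosome 1. Between mt-Co2 and its copy Gm28661 (chr1:24614885-24615565, GRCm38), 681 bases could be aligned with 0 differences. A stretch of 60 bases, from position 101 to 160 of either transcript in GENCODE release M21, is shown to make plain that a read from it fits both places equally.
mt-Co2: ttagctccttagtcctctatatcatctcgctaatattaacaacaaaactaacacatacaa
Gm28661: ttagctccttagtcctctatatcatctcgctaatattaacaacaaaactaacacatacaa
Reads were listed at the copies too. Gm28437, the copy of mt-Co3, had 621 to 1585 FPKM in NL, 50.8 to 291 FPKM in c-MYC and 136 to 402 FPKM in c-MYC/FOXO1AAA. How the counting treated reads with more than one place is not given in the sources used here, so the levels of mt-Co2, mt-Co3, mt-Atp6, mt-Nd3 and mt-Nd4l are uncertain. Only annotated transcripts were searched, so a share of 0%, as for mt-Atp8, does not exclude nuclear copies outside them. The call of mt-Co3 in c-MYC versus NL, at -1.98 ± 0.54 (SE, adjusted p = 0.0302 by limma), was lost without NL 1, NL 2, NL 4 or c-MYC 2 (adjusted p from 0.053 to 0.133). That of mt-Nd4l, at -1.96 ± 0.47 (SE, adjusted p = 0.0176 by limma), was lost without c-MYC 1 (0.0632) or c-MYC 3 (0.0503). With each mt- gene summed with its copy, the median of the 13 genes was -2.09 in c-MYC versus NL, -0.14 between the tumors and -2.13 in c-MYC/FOXO1AAA versus NL.

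The mitochondrial ribosomal RNAs are not among the 110 genes and are not translated. mt-Rnr1, the small ribosomal RNA, had 1301, 1551, 1556 and 1204 FPKM in NL, 1532, 793 and 1035 FPKM in c-MYC and 365, 303 and 472 FPKM in c-MYC/FOXO1AAA. Its log2 fold change was -0.37 ± 0.22 (SE, adjusted p = 1 by limma) in c-MYC versus NL and -1.53 ± 0.24 (SE, adjusted p = 0.00528 by limma) between the tumors, so that it was called between the tumors and not in c-MYC versus NL. The libraries were made by polyA capture or by removal of ribosomal RNA, without a statement of which, and the level of these RNAs depends on that step.

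Complex I, the NADH dehydrogenase, had 11 of 37 nuclear subunits called lower in c-MYC versus NL, 2 between the tumors and 30 in c-MYC/FOXO1AAA versus NL, and 0 called higher in any of them. All tested genes were called lower in 23.6%, 12.7% and 26.6%, so that the share in c-MYC versus NL was near that of all genes and the share between the tumors below it. Its subunits fall into 7 nuclear core subunits, which carry the electrons, and 30 accessory subunits around them. In c-MYC versus NL 0 of the 7 core subunits and 11 of the 30 accessory subunits were called lower, with median log2 fold changes of -0.47 and -0.81. By treat 0 core subunits reached an unadjusted p under 0.05 there, and without the fold threshold 4 were lower. Between the tumors the medians stood the other way, at -0.77 and -0.47, with 1 core and 1 accessory subunit called lower. All 7 core subunits had every c-MYC/FOXO1AAA library below every c-MYC library. This held for 12 of the 30 accessory subunits and for 30.7% of all tested genes. Whether core and accessory subunits differ was not tested.

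Ndufa1, an accessory subunit of the membrane arm (chrX:37187588-37191163, minus strand), had 256, 256, 271 and 243 FPKM in NL, 85.96, 60.9 and 70.8 FPKM in c-MYC and 70.2, 67.2 and 94.2 FPKM in c-MYC/FOXO1AAA. The tumor groups overlapped and both lay far below NL, with a log2 fold change of -1.83 ± 0.14 (SE, adjusted p = 1.27e-05 by limma) in c-MYC versus NL. It was the nuclear subunit of complex I with the largest decrease there, and Ndufa1 and Uqcrq were the only nuclear subunits still called lower after rescaling to the same FPKM total. Ndufb10 (chr17:24722060-24724478, minus strand), another accessory subunit of the membrane arm, fell between the tumors. It stood at 306, 269.5, 302 and 286 FPKM in NL, 185, 143 and 154 FPKM in c-MYC and 48.6, 55.1 and 81.8 FPKM in c-MYC/FOXO1AAA, so that no 2 groups overlapped. Its log2 fold change was -0.86 ± 0.16 (SE, adjusted p = 0.116 by limma) in c-MYC versus NL, -1.40 ± 0.18 (SE, adjusted p = 0.00213 by limma) between the tumors and -2.27 ± 0.16 (SE, adjusted p = 2.6e-06 by limma) in c-MYC/FOXO1AAA versus NL. Ndufv2, an iron-sulfur core subunit of the NADH-oxidizing module, had 193, 174, 201 and 179.6 FPKM in NL, 238, 193 and 211 FPKM in c-MYC and 79.2, 78.8 and 123 FPKM in c-MYC/FOXO1AAA. NL and c-MYC overlapped, and the change between the tumors was -1.22 ± 0.16 (SE, adjusted p = 0.0067 by limma). Ndufs1, the largest core subunit, had 60.9, 62.7, 65.6 and 60.8 FPKM in NL, 73.9, 69.2 and 60.7 FPKM in c-MYC and 40.2, 42.4 and 43.7 FPKM in c-MYC/FOXO1AAA. Its difference between the tumors, -0.68 ± 0.10 (SE, adjusted p = 0.409 by limma), was not past the threshold although the groups did not overlap. The calls of Ndufs4, Ndufs6 and Ndufb1-ps in c-MYC versus NL were lost without some single libraries, c-MYC 2 among them (adjusted p = 0.0838, 0.144 and 0.0968 without it).

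Complex II, succinate dehydrogenase, joins the citrate cycle to the chain. Its flavoprotein and iron-sulfur subunits were lower in c-MYC than in NL, and the membrane anchor Sdhd was called lower between the tumors. Against NL these calls depend on the scaling, as given for each gene. Sdha, the flavoprotein that oxidizes succinate (chr13:74322254-74350280, minus strand), had 226, 244, 224 and 218 FPKM in NL, 107, 122 and 96.99 FPKM in c-MYC and 53.3, 59.05 and 71.7 FPKM in c-MYC/FOXO1AAA. Sdha had a log2 fold change of -1.07 ± 0.12 (SE, adjusted p = 0.00271 by limma) in c-MYC versus NL and -0.83 ± 0.13 (SE, adjusted p = 0.123 by limma) between the tumors, where the groups did not overlap. Sdhb, the iron-sulfur subunit (chr4:140961203-140979193, plus strand), had 359.8, 396, 388 and 358 FPKM in NL, 195, 141 and 164 FPKM in c-MYC and 82.1, 88.6 and 123 FPKM in c-MYC/FOXO1AAA. For Sdhb it was -1.18 ± 0.15 (SE, adjusted p = 0.00335 by limma) in c-MYC versus NL and -0.78 ± 0.16 (SE, adjusted p = 0.338 by limma) between the tumors. No 2 groups overlapped for Sdha or Sdhb. Rescaled to the same FPKM total, neither Sdha nor Sdhb was called in c-MYC versus NL, and Sdhb alone of the 4 was called lower in c-MYC/FOXO1AAA versus NL.

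Sdhc and Sdhd together anchor the complex in the membrane and bind ubiquinone. Sdhc had 81.8, 79.6, 88.1 and 73.7 FPKM in NL, 54.6, 38.9 and 42.1 FPKM in c-MYC and 36.4, 39.5 and 43.2 FPKM in c-MYC/FOXO1AAA, and the tumor groups overlapped. Its log2 fold change was -0.85 ± 0.13 (SE, adjusted p = 0.0598 by limma) in c-MYC versus NL, a sign that turned to 0.077 after rescaling to the same FPKM total, and -0.17 ± 0.13 (SE, adjusted p = 1 by limma) between the tumors. Sdhd (chr9:50596357-50603812, minus strand) had 227, 212, 235 and 219 FPKM in NL, 298, 318 and 285 FPKM in c-MYC and 112, 112 and 145 FPKM in c-MYC/FOXO1AAA. The c-MYC libraries of Sdhd lay above NL and those of c-MYC/FOXO1AAA below it, with no overlap. The change was 0.43 ± 0.11 (SE, adjusted p = 1 by limma) in c-MYC versus NL and -1.29 ± 0.12 (SE, adjusted p = 0.000317 by limma) between the tumors, the smallest adjusted p of any nuclear subunit there. Sdhd was called higher in c-MYC versus NL under the other scalings, at 1.36 with the same FPKM total, 1.35 scaled to reads and 1.14 with quantile normalization. In c-MYC/FOXO1AAA versus NL it was -0.86 ± 0.11 (SE, adjusted p = 0.0235 by limma). That call was lost without NL 3, c-MYC/FOXO1AAA 1 or c-MYC/FOXO1AAA 2, and its sign turned to 0.23 after rescaling to the same FPKM total.

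**Figure D4:**
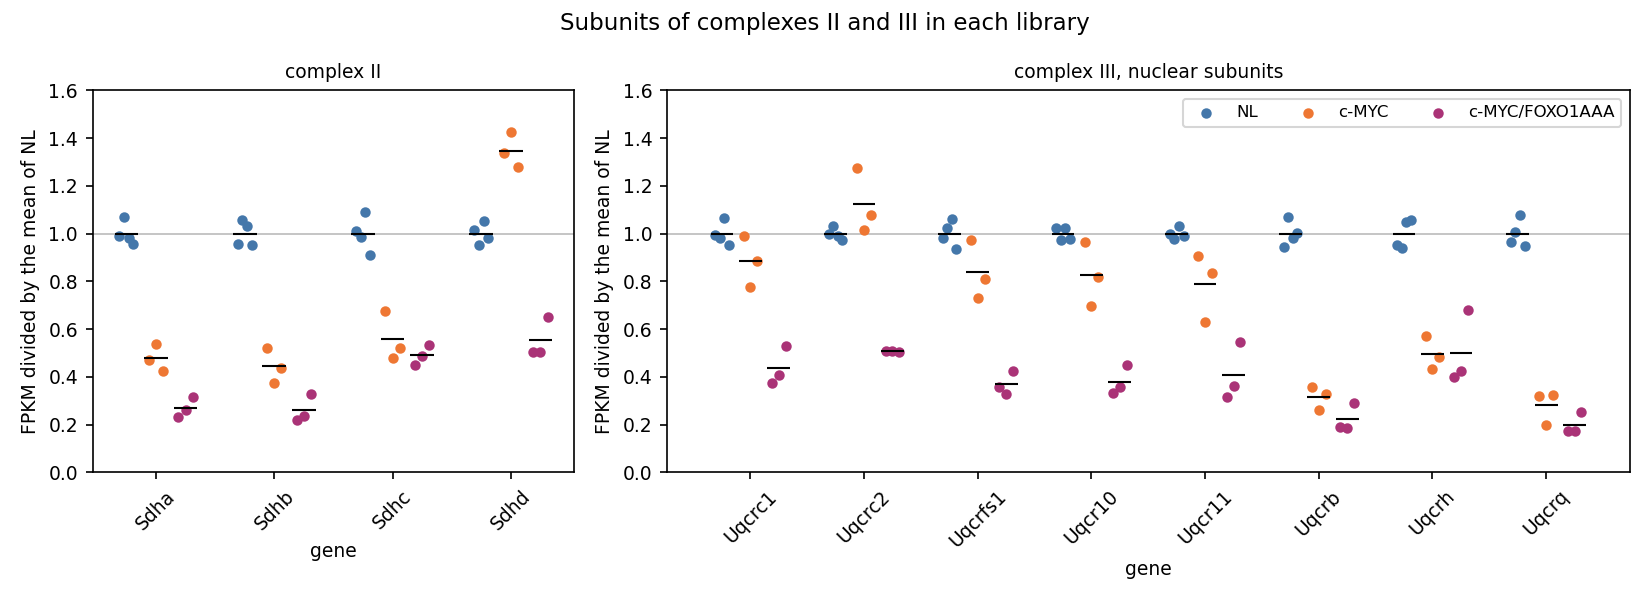
FPKM of the 4 subunits of complex II and of the 8 nuclear subunits of complex III divided by the mean of NL, with one point per library and a bar for the group mean. In Sdhd, Uqcrc1, Uqcrc2 and Uqcrfs1 the c-MYC points are near or above NL and the c-MYC/FOXO1AAA points below both, whereas in Sdha, Sdhb, Uqcrb, Uqcrh and Uqcrq the c-MYC points are already below NL.

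Complex III, the cytochrome c reductase, had 3 of 8 nuclear subunits called lower in c-MYC versus NL, namely Uqcrb, Uqcrh and Uqcrq. Between the tumors 4 others were called lower, namely Uqcrc1, Uqcrc2, Uqcrfs1 and Uqcr10, and Uqcr11 was called in neither. All tested genes were called lower in 23.6% in c-MYC versus NL, 12.7% between the tumors and 26.6% in c-MYC/FOXO1AAA versus NL. Whether these subunits differ in their changes was not tested, and Uqcrb and Uqcrq had log2 fold changes of -0.52 and -0.48 between the tumors. After rescaling to the same FPKM total, Uqcrq alone of the 3 was still called lower in c-MYC versus NL. All 8 were called lower in c-MYC/FOXO1AAA versus NL, where the call of Uqcrh was lost without NL 3, NL 4, c-MYC/FOXO1AAA 1 or c-MYC/FOXO1AAA 2 (adjusted p from 0.05004 to 0.108). Uqcrq, a small accessory subunit (chr11:53427922-53430831, minus strand), had 535, 560, 599.7 and 527 FPKM in NL, 178, 109.7 and 179.6 FPKM in c-MYC and 95.2, 97.4 and 141 FPKM in c-MYC/FOXO1AAA. On the log2 scale the change was -1.87 ± 0.19 (SE, adjusted p = 8.68e-05 by limma) in c-MYC versus NL, and -0.48 ± 0.20 (SE, adjusted p = 1 by limma) between the tumor groups, which overlapped. Uqcrc2, a core protein of the matrix side (chr7:120635176-120659524, plus strand), had 332, 343, 329 and 324 FPKM in NL, 424, 337 and 358 FPKM in c-MYC and 169, 168 and 167 FPKM in c-MYC/FOXO1AAA. NL and c-MYC overlapped and the c-MYC/FOXO1AAA libraries lay far below both, with a change of -1.14 ± 0.10 (SE, adjusted p = 0.000628 by limma) between the tumors. Uqcrfs1, the Rieske iron-sulfur protein, had 263, 274, 284 and 251 FPKM in NL, 261, 196 and 217 FPKM in c-MYC and 95.97, 88.00 and 114 FPKM in c-MYC/FOXO1AAA. The change between the tumors was -1.18 ± 0.13 (SE, adjusted p = 0.00263 by limma). Uqcrc2, Uqcrfs1, Sdhd, Ndufv2, Ndufb10 and Atp5c1 were the 6 nuclear subunits called lower between the tumors under every scaling tried. The call of Uqcrc1, at -1.02 ± 0.14 (SE, adjusted p = 0.0187 by limma), was lost without c-MYC 1, c-MYC/FOXO1AAA 1 or c-MYC/FOXO1AAA 2 (adjusted p from 0.0719 to 0.0898). That of Uqcrh in c-MYC versus NL, at -1.02 ± 0.17 (SE, adjusted p = 0.0329 by limma), was lost without NL 3, NL 4, c-MYC 2 or c-MYC 3 (0.0669 to 0.114).

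Promoter sequence was read for letters that known regulators of respiration bind. RefSeq promoters of GRCm38.p6, running from 250 bases before to 50 bases after the start of the gene, matched 64 of the 76 nuclear subunits and 27025 genes in all. Counted on both strands, the ETS letters CCGGAAG stood in 25% of the matched subunits and in 9.93% of all promoters, and the NRF1 core GCATGCG in 17.2% and 4.01%. The ERR half-site AAGGTCA stood in 12.5% and 5.38%, the E-box CACGTG, which MYC binds, in 9.38% and 8.09%, and the FOXO letters GTAAACA in 1.56% and 4.05%. These are matches of letters and not sites shown to be bound. Upstream sequences are printed for Sdhd and Uqcrh, whose ETS letters (in capitals, on the opposite strand) are the same. Sdhd was called lower between the tumors, and Uqcrh in c-MYC versus NL by a call that single libraries decided. The isoform Cox6b2, which was higher in the tumors, is printed last and holds 0 of the 5 motifs. Each sequence ends at the base before the start of the gene in RefSeq, which for Sdhd lies upstream of the start in the GENCODE position given above.
Sdhd (chr9:50603850-50604099, minus strand): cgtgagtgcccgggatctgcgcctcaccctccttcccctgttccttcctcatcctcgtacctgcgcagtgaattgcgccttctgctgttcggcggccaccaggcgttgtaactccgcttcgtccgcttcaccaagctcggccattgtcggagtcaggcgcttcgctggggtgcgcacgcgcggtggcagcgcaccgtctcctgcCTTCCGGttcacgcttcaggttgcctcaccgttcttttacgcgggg
Uqcrh (chr4:116075071-116075320, minus strand): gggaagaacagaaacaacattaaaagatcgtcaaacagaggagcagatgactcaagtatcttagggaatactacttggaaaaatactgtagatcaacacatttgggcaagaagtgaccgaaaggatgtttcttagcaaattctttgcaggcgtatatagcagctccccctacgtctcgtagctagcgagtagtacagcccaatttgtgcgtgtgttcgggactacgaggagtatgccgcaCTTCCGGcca
Cox6b2 (chr7:4753095-4753344, minus strand): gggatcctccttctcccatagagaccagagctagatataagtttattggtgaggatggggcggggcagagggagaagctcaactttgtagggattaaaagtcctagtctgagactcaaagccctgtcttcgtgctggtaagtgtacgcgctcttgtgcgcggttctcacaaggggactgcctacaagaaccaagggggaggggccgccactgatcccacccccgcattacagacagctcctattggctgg

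Complex IV, cytochrome c oxidase, had 2 of 11 general nuclear subunits called lower in c-MYC versus NL, 0 between the tumors and 11 in c-MYC/FOXO1AAA versus NL, beside 23.6%, 12.7% and 26.6% of all tested genes. In 10 of the 11 every c-MYC library lay below every NL library, against 34.9% of all tested genes. Between the tumors treat gave 0 at an unadjusted p under 0.05 as well, and the limma test without the fold threshold gave 6 lower and 1 higher. Cox6c, a small structural subunit (chr15:35925886-35938246, minus strand), had 459, 493, 505 and 486 FPKM in NL, 188, 108 and 159 FPKM in c-MYC and 209, 201 and 284 FPKM in c-MYC/FOXO1AAA. Against NL it fell by 1.71 on the log2 scale (SE 0.18, adjusted p = 0.00016 by limma) in c-MYC, and its c-MYC/FOXO1AAA libraries all lay above those of c-MYC, a difference of 0.63 ± 0.19 (SE, adjusted p = 0.87 by limma) that was not past the threshold. The calls of Cox6c, Cox7c and Cox8a in c-MYC/FOXO1AAA versus NL were lost without c-MYC/FOXO1AAA 1 or c-MYC/FOXO1AAA 2, and that of Cox8a also without NL 1, NL 2 or NL 3 (adjusted p from 0.0543 to 0.0675 without an NL library). Ndufa4 (chr6:11900292-11907497, minus strand) had 607, 643, 684 and 626 FPKM in NL, 269, 205 and 232 FPKM in c-MYC and 146, 147 and 237 FPKM in c-MYC/FOXO1AAA. Ndufa4 had a log2 fold change of -1.45 ± 0.17 (SE, adjusted p = 0.000621 by limma) in c-MYC versus NL and -1.89 ± 0.17 (SE, adjusted p = 2.18e-05 by limma) in c-MYC/FOXO1AAA versus NL. Cox4i1, the general form of the largest nuclear subunit, had 1220.3, 1134, 1192 and 1124 FPKM in NL, 868, 601 and 772 FPKM in c-MYC and 493, 535 and 667 FPKM in c-MYC/FOXO1AAA. For Cox4i1 it was -0.66 ± 0.14 (SE, adjusted p = 0.484 by limma) in c-MYC versus NL and -1.06 ± 0.14 (SE, adjusted p = 0.00701 by limma) in c-MYC/FOXO1AAA versus NL.

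Several subunits of complex IV have a second gene that other tissues use in place of the general one, and some of these restricted isoforms were higher in the tumors. Of the 6, 2 were called higher in c-MYC versus NL, 2 between the tumors and 4 in c-MYC/FOXO1AAA versus NL, and 0 were called lower. All tested genes were called higher in 24.5%, 15.9% and 31.2%, so the count in c-MYC versus NL was near that of all genes. The other 2 counts include Cox8b, which passed the filter on low values only through the c-MYC/FOXO1AAA libraries. Cox6a2, counted as higher in both comparisons with NL, would not have met that filter without the c-MYC/FOXO1AAA libraries either. Cox6b2, the testis form of subunit 6B (chr7:4751792-4753094, minus strand), had 2.48, 1.45, 1.05 and 1.90 FPKM in NL, 26.7, 13.4 and 18.4 FPKM in c-MYC and 37.95, 30.1 and 33.7 FPKM in c-MYC/FOXO1AAA. On the log2 scale it rose by 3.36 ± 0.27 (SE, adjusted p = 4.96e-06 by limma) against NL in c-MYC, and the further difference of 0.84 ± 0.29 (SE, adjusted p = 0.491 by limma) between the tumors was not past the threshold although the groups did not overlap. Its general counterpart Cox6b1 had 460.4, 457, 443 and 441 FPKM in NL, 300, 224 and 265 FPKM in c-MYC and 162, 168 and 248 FPKM in c-MYC/FOXO1AAA. Cox6b2 therefore made up 0.379% ± 0.130 (SD, n = 4) of the summed FPKM of the pair in NL, 6.78% ± 1.28 (SD, n = 3) for c-MYC, and 15.4% ± 3.52 (SD, n = 3) for c-MYC/FOXO1AAA.

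Ndufa4l2, a relative of Ndufa4 known to be induced by hypoxia (chr10:127514967-127517154, plus strand), had 2.42, 4.32, 4.39 and 4.65 FPKM in NL, 7.64, 1.99 and 5.94 FPKM in c-MYC and 44.5, 28.8 and 26.4 FPKM in c-MYC/FOXO1AAA. NL and c-MYC overlapped, and every c-MYC/FOXO1AAA library lay above both, with a change of 2.81 ± 0.44 (SE, adjusted p = 0.00153 by limma) between the tumors. Its share of the summed FPKM of Ndufa4 and Ndufa4l2 was 0.610% ± 0.148, 2.07% ± 0.973 and 16.6% ± 6.64 in NL, c-MYC and c-MYC/FOXO1AAA (SD, n = 4, 3 and 3). Cox6a2 and Cox8b, the heart and skeletal muscle forms of subunits 6A and 8, were near the limit of detection and are given in reads. Cox6a2 had 1, 0, 0 and 0 reads in NL, 2, 10 and 20 in c-MYC and 45, 24 and 27 in c-MYC/FOXO1AAA. Its call as higher in c-MYC was lost without c-MYC 2 (adjusted p = 0.0627) or c-MYC 3 (0.0998). Cox8b had 1, 0, 0 and 0 reads in NL, 0 in each c-MYC library and 11, 16 and 10 in c-MYC/FOXO1AAA. Against 3 reads per library, which a count of 0 allows, Cox8b was at least 3.07-fold higher with FOXO1AAA than in c-MYC, and the bound covers counting error only. Without any single c-MYC/FOXO1AAA library Cox8b no longer met the filter on low values. Cox7a1, the muscle form of subunit 7A, had 1.38, 1.89, 1.30 and 3.40 FPKM in NL, 9.98, 3.24 and 4.16 FPKM in c-MYC and 0.413, 0.852 and 3.503 FPKM in c-MYC/FOXO1AAA. It was not called in any comparison. Cox4i2, the lung form of subunit 4, was not called either and held 2 to 16 reads in every library. Cox8b passed the filter only through the c-MYC/FOXO1AAA libraries, the group where it was high. Its call as higher between the tumors, at a log2 fold change of 2.38 ± 0.30 (SE), was therefore partly fixed by the filter. Cox6a2 was not called there, at 1.30 ± 0.56 (SE, adjusted p = 0.306 by limma). The summed FPKM of 14 measured skeletal muscle markers was 2.45 to 4.18 in NL, 3.78 to 9.39 in c-MYC and 453 to 578 in c-MYC/FOXO1AAA. Most of the 12 tested ones passed the filter on low values only through the c-MYC/FOXO1AAA libraries. A count of their calls was therefore largely fixed in advance and is not given. Of these 14, 6 had 0 reads in every NL library, 3 in every c-MYC library and 0 in every c-MYC/FOXO1AAA library. Their part in the result was not tested.

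**Figure D5:**
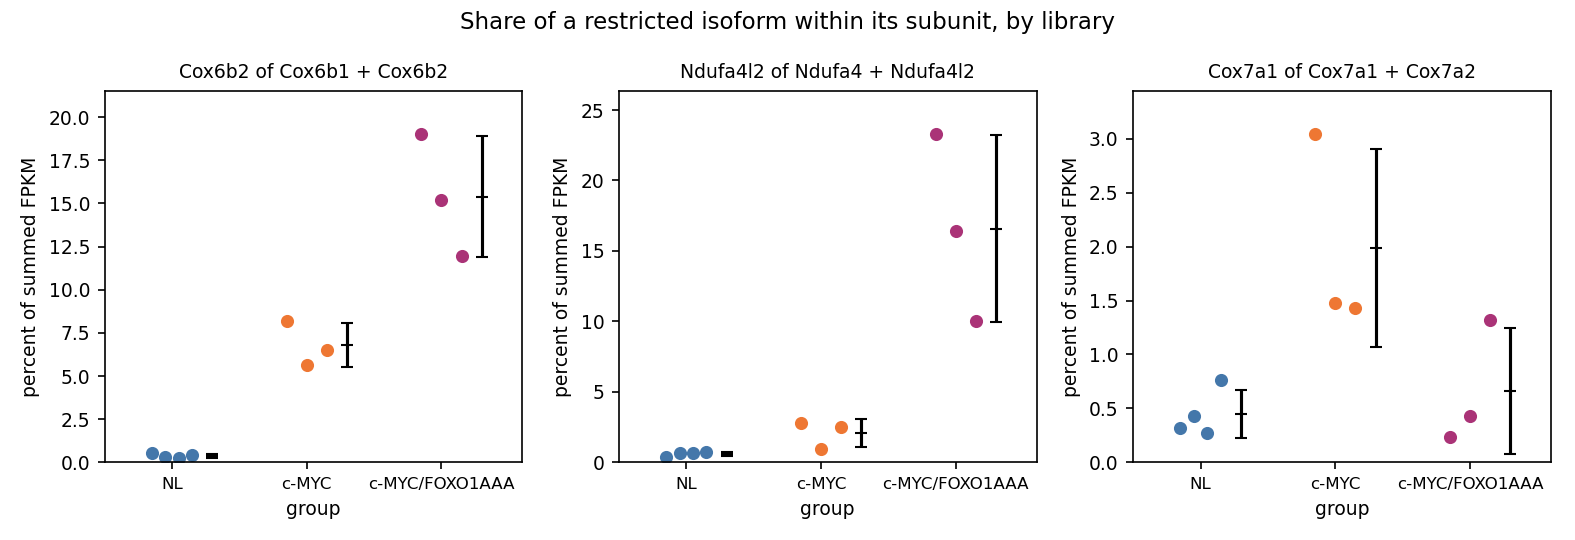
Share of a restricted isoform in the summed FPKM of its pair, in percent, for Cox6b2, Ndufa4l2 and Cox7a1, with one point per library and the group mean ± SD beside the points. Cox6b2 and Ndufa4l2 take more of their pairs in c-MYC/FOXO1AAA than in either other group, and Cox7a1 is highest in c-MYC 1.

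Complex V, the ATP synthase, had 3 of 16 nuclear subunits called lower in c-MYC versus NL, 3 between the tumors and 9 in c-MYC/FOXO1AAA versus NL, beside 23.6%, 12.7% and 26.6% of all tested genes. The share was therefore near that of all genes in c-MYC versus NL. As a share of reads its 16 subunits took 0.509% ± 0.0168, 0.913% ± 0.0736 and 0.646% ± 0.0661 in NL, c-MYC and c-MYC/FOXO1AAA (SD, n = 4, 3 and 3), with no overlap between groups. Atp5b, the catalytic beta subunit (chr10:128083273-128090391, plus strand), had 3985, 3733, 3814 and 3566 FPKM in NL, 4893, 4849 and 4676 FPKM in c-MYC and 2691, 2879.9 and 2959 FPKM in c-MYC/FOXO1AAA. The groups did not overlap, c-MYC lay above NL and c-MYC/FOXO1AAA below it, and the changes were 0.35 ± 0.09 (SE, adjusted p = 1 by limma) and -0.76 ± 0.10 (SE, adjusted p = 0.148 by limma). Rescaled to the same FPKM total, Atp5b was called higher in c-MYC versus NL. Its level relative to other genes is uncertain, since the length used for it was 478 bases where its longest annotated transcript has 1916.

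Atp5c1, the gamma subunit that forms the rotor shaft (chr2:10056016-10080510, minus strand), had 681, 705, 748 and 662 FPKM in NL, 774, 570.4 and 635 FPKM in c-MYC and 259, 252 and 344 FPKM in c-MYC/FOXO1AAA. NL and c-MYC overlapped, and the change between the tumors was -1.21 ± 0.15 (SE, adjusted p = 0.00355 by limma). Atp5e, the epsilon subunit of the rotor (chr2:174461072-174464105, minus strand), was lower already in c-MYC. It had 687, 689.6, 733 and 687 FPKM in NL, 331, 210.4 and 279 FPKM in c-MYC and 221, 276 and 366 FPKM in c-MYC/FOXO1AAA, with a change of -1.38 ± 0.18 (SE, adjusted p = 0.00174 by limma) in c-MYC versus NL and overlapping tumor groups. Atp5j, coupling factor 6 of the peripheral stalk, had 446, 477, 461 and 433 FPKM in NL, 250.2, 179 and 214 FPKM in c-MYC and 129, 124 and 162 FPKM in c-MYC/FOXO1AAA. It had the largest decrease of complex V in c-MYC/FOXO1AAA versus NL, at -1.72 ± 0.13 (SE, adjusted p = 9.03e-06 by limma). The call of Atp5k in c-MYC versus NL was lost without any one of the NL libraries and without c-MYC 2 or c-MYC 3 (adjusted p from 0.0574 to 0.163).

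Subunit c, which forms the rotating ring of the synthase, is encoded by 3 genes whose mature proteins are the same. Of these, 1 was called between the tumors. Atp5g1 (chr11:96068852-96075670, minus strand) had 65.1, 65.99, 66.1 and 64.7 FPKM in NL, 63.2, 43.7 and 52.4 FPKM in c-MYC and 20.2, 22.4 and 32.02 FPKM in c-MYC/FOXO1AAA. The change between the tumors was -1.11 ± 0.17 (SE, adjusted p = 0.024 by limma), a call lost without c-MYC 1, c-MYC 3, c-MYC/FOXO1AAA 1 or c-MYC/FOXO1AAA 2 (adjusted p from 0.0538 to 0.112). Atp5g2 (chr15:102662864-102672352, minus strand) had 260.1, 237, 263 and 249.5 FPKM in NL, 283, 229 and 242 FPKM in c-MYC and 257, 263 and 270.3 FPKM in c-MYC/FOXO1AAA. Its groups overlapped throughout, with log2 fold changes of -0.01 and 0.07, and it was the nuclear subunit with the highest log2 fold change in c-MYC/FOXO1AAA versus NL, at 0.06 ± 0.09 (SE, adjusted p = 1 by limma). Rescaled to the same FPKM total it was called higher there. Atp5g3 had 914, 914, 1009.5 and 899 FPKM in NL, 825, 625 and 749 FPKM in c-MYC and 346, 379 and 528 FPKM in c-MYC/FOXO1AAA, with log2 fold changes of -0.36 and -0.83 that were not past the threshold. Whether the 3 genes differ in their change was not tested.

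The assembly factors among the 110 genes help to build the complexes without staying in them. Of 9, 1 was called higher in c-MYC versus NL, 3 lower between the tumors and 3 lower in c-MYC/FOXO1AAA versus NL. The shares of all tested genes called in these directions were 24.5%, 12.7% and 26.6%. Ndufaf7, which methylates a core subunit of complex I, had 12.1, 11.6, 13.6 and 11.3 FPKM in NL, 27.8, 23.2 and 23.2 FPKM in c-MYC and 10.4, 10.4 and 14.2 FPKM in c-MYC/FOXO1AAA. It stood above NL in every c-MYC library and at the NL level in c-MYC/FOXO1AAA, with changes of 1.02 ± 0.13 (SE, adjusted p = 0.0103 by limma) and -1.09 ± 0.14 (SE, adjusted p = 0.0111 by limma). The second call was lost without c-MYC/FOXO1AAA 1 (0.0534) or c-MYC/FOXO1AAA 2 (0.0528). Ndufaf1 and Ndufaf6 were the others called lower between the tumors, at -0.87 ± 0.11 (SE, adjusted p = 0.0431 by limma) and -0.96 ± 0.11 (SE, adjusted p = 0.0135 by limma). Both calls were lost without c-MYC/FOXO1AAA 1, at 0.183 and 0.0674, and that of Ndufaf1 also without c-MYC/FOXO1AAA 2 or any one of the c-MYC libraries (0.0505 to 0.11). The 5 copies or pseudogenes can share reads with their parent genes, and among them 1 was called, Ndufb4c, as lower in c-MYC/FOXO1AAA versus NL (adjusted p = 0.0493), a call lost without NL 1, NL 2, NL 3, c-MYC/FOXO1AAA 1 or c-MYC/FOXO1AAA 3. Atp5s was not called in any comparison.

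Other genes of respiration were read from lists written out by function, on the deposited scale, and the shift of the median of all genes given above applies to them too. All tested genes were called lower in 23.6%, 12.7% and 26.6% and higher in 24.5%, 15.9% and 31.2% in the 3 comparisons. The medians of the assembly lists lay between -0.73 and -0.15, except for complex V with 0.84, -0.60 and 0.08. Of 9 further assembly genes of complex I, 2 were called lower in c-MYC versus NL, 1 between the tumors and 3 in c-MYC/FOXO1AAA versus NL. Of 10 for complexes II and III the counts were 2, 1 and 2. Of 20 tested for complex IV they were 4, 2 and 9, with 1 called higher in the first comparison. Acad9 (complex I), Bcs1l (the Rieske chaperone of complex III) and Surf1 (heme insertion in complex IV) had the largest decreases of these lists between the tumors. Bcs1l had 15.6, 14.2, 13.8 and 14.4 FPKM in NL, 25.3, 22.2 and 23.6 FPKM in c-MYC and 9.79, 9.87 and 12.3 FPKM in c-MYC/FOXO1AAA, and its change between the tumors was -1.15 ± 0.12 (SE, adjusted p = 0.00147 by limma). The changes of Acad9 and Surf1 there were -0.99 ± 0.10 (SE, adjusted p = 0.00659 by limma) and -1.15 ± 0.11 (SE, adjusted p = 0.00125 by limma). In c-MYC versus NL, Tmem126b (complex I), Sdhaf4 (complex II) and Higd1a (complex IV) fell, with log2 fold changes of -1.21, -1.42 and -1.64, and Cox15, which makes heme A, rose by 1.24. Of 4 genes for assembly or inhibition of complex V, 2 were called higher in c-MYC versus NL. Atpif1, the inhibitor protein of the synthase, had 35.9, 19.9, 25.7 and 24.8 FPKM in NL, 216, 148 and 185 FPKM in c-MYC and 104, 106 and 144 FPKM in c-MYC/FOXO1AAA, and rose by 2.79 ± 0.20 (SE, adjusted p = 2.93e-06 by limma) in c-MYC versus NL.

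Genes that feed electrons into the chain were called in both directions, as were all tested genes (24.5% higher and 23.6% lower in c-MYC versus NL). With medians of -0.48, -0.43 and -0.76 in the 3 comparisons, of 22 carriers and dehydrogenases 5 were called higher and 8 lower in c-MYC versus NL, 2 higher and 7 lower between the tumors, and 3 higher and 10 lower in c-MYC/FOXO1AAA versus NL. Sqor, which passes electrons from sulfide to ubiquinone, had means of 196 ± 13.3, 0.917 ± 0.172 and 3.89 ± 1.37 FPKM in NL, c-MYC and c-MYC/FOXO1AAA (SD, n = 4, 3 and 3), with changes of -7.65 ± 0.21 (SE, adjusted p = 1.5e-09 by limma) and 1.96 ± 0.23 (SE, adjusted p = 0.000383 by limma). Etfdh, which feeds in electrons from fatty acid oxidation, had 125, 114, 109 and 117 FPKM in NL, 54.8, 51.98 and 51.9 FPKM in c-MYC and 10.2, 11.9 and 17.03 FPKM in c-MYC/FOXO1AAA. No groups overlapped, and the changes were -1.13 ± 0.15 (SE, adjusted p = 0.00501 by limma) and -2.05 ± 0.16 (SE, adjusted p = 1.79e-05 by limma). Pdss1, an enzyme of the ubiquinone side chain, rose by 2.70 ± 0.25 (SE, adjusted p = 1.79e-05 by limma) in c-MYC versus NL.

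Genes that keep and read mitochondrial DNA had a median log2 fold change of 0.53 in c-MYC versus NL, where the mt- genes had -2.05. Of 23, 6 were called higher and 1 lower there, against 24.5% and 23.6% of all tested genes. The share called higher was therefore near that of all genes. Between the tumors 0 were called higher and 2 lower, against 15.9% and 12.7% of all tested genes. In c-MYC/FOXO1AAA versus NL 2 were called higher and 3 lower, against 31.2% and 26.6%. The mitochondrial helicase Twnk had 12.1, 9.94, 11.7 and 11.1 FPKM in NL, 28.04, 24.3 and 22.3 FPKM in c-MYC and 22.6, 25.7 and 22.3 FPKM in c-MYC/FOXO1AAA, a change of 1.14 ± 0.11 (SE, adjusted p = 0.000797 by limma) in c-MYC versus NL. Fastkd5, which helps to process mitochondrial RNA, had the largest increase there, at 1.46 ± 0.19 (SE, adjusted p = 0.00118 by limma), and Hsd17b10, a part of mitochondrial RNase P, the only decrease, at -1.16 ± 0.13 (SE, adjusted p = 0.00136 by limma). Lrpprc, which stabilizes mitochondrial messages, had 48.8, 41.1, 44.7 and 41.95 FPKM in NL, 58.7, 75.3 and 54.2 FPKM in c-MYC and 18.1, 20.2 and 25.99 FPKM in c-MYC/FOXO1AAA. It fell between the tumors, where 0 mt- genes were called, with a change of -1.55 ± 0.16 (SE, adjusted p = 0.000331 by limma). Whether Lrpprc or the other genes of this list have a part in the levels of the mt- genes was not tested. Of 9 regulators of respiration, 3 were called higher and 1 lower in c-MYC versus NL, 2 higher between the tumors, and 3 higher and 1 lower in c-MYC/FOXO1AAA versus NL. The same shares of all tested genes stand beside these counts. The coactivator Ppargc1a had means of 2.40 ± 0.311, 0.0798 ± 0.0948 and 0.281 ± 0.0739 FPKM in NL, c-MYC and c-MYC/FOXO1AAA (SD, n = 4, 3 and 3). Its relative Pprc1 had 5.44, 1.74, 6.70 and 4.29 FPKM in NL, 25.9, 26.3 and 24.2 FPKM in c-MYC and 19.8, 23.2 and 17.99 FPKM in c-MYC/FOXO1AAA. Their changes in c-MYC versus NL were -5.05 ± 0.52 (SE, adjusted p = 1.56e-05 by limma) and 2.64 ± 0.37 (SE, adjusted p = 0.000425 by limma).

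Of 7 genes for nucleotide exchange and uncoupling, 2 were called higher in c-MYC versus NL and in c-MYC/FOXO1AAA versus NL, and 0 between the tumors. Slc25a4, the muscle and heart form of the ATP/ADP carrier, had 26.9, 4.08, 16.2 and 9.09 FPKM in NL, 300.2, 252 and 265 FPKM in c-MYC and 183, 179 and 229.8 FPKM in c-MYC/FOXO1AAA, a change of 4.58 ± 0.50 (SE, adjusted p = 3.25e-05 by limma) in c-MYC versus NL. Of 15 genes for import and matrix upkeep, 5 were called higher in c-MYC versus NL, 3 lower between the tumors, and 2 higher and 1 lower in c-MYC/FOXO1AAA versus NL. For both lists, all tested genes were called higher in 24.5%, 15.9% and 31.2% and lower in 23.6%, 12.7% and 26.6%. The import receptor Tomm20 had 16.8, 13.1, 14.6 and 13.7 FPKM in NL, 43.9, 44.1 and 49.95 FPKM in c-MYC and 49.7, 47.7 and 48.6 FPKM in c-MYC/FOXO1AAA, with a change of 1.66 ± 0.10 (SE, adjusted p = 3.4e-06 by limma) in c-MYC versus NL. Lonp1, the matrix protease, was the one called lower in c-MYC/FOXO1AAA versus NL, at -0.94 ± 0.11 (SE, adjusted p = 0.00981 by limma). Phb, a scaffold protein of the inner membrane, fell between the tumors by a log2 fold change of -0.99 ± 0.14 (SE, adjusted p = 0.0259 by limma).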

How the data were processed

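RNA was sequenced from 4 NL, 3 c-MYC and 3 c-MYC/FOXO1AAA samples, grouped by the titles in the labels. The deposited values are log2 FPKM made by the authors in R with edgeR from read counts by gene. Their floors in libraries without reads match a prior count of 2. FastQC 0.11.7 and GRCm38 stand in the submitters' processing notes. The aligner, the counter and the use of strand are not given in the sources used here, so mt- genes that overlap, such as mt-Nd5 and mt-Nd6, may share reads. Of 17069 entries, 372 with neither a symbol nor a value were left out.

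The authors tested counts with glmTreat in edgeR, whose fold threshold is not given for these samples in the sources used here. Since the deposited unit is log2, limma 3.58.1 (R 4.3.3, statmod 1.5.0) was used on these values, with treat at 1.5-fold, trend and robust estimation, a mean per group over all 10 libraries, and genes of at least 1 FPKM in at least 3 libraries. The prior count is part of every fold change, which understates the change of low genes. Because the prior count sets a floor that depends on gene length, whole reads and lengths could be recovered for 16692 of 16697 genes to within 0.001 read (Python 3.11.15, numpy 2.4.6, pandas 2.3.3, scipy 1.17.1). FPKM and shares of reads come from these. Of the 110 members, 107 have the length of an annotated transcript and 20 are under 50% of the longest, so levels compare less well between genes than between libraries. Positions of genes are GRCm38, GENCODE M21, and those of promoters follow RefSeq.

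The members and lists were chosen with earlier results of these data known. Named genes were the nuclear subunits with the largest increase and decrease by complex and comparison among those called with a mean of at least 10 FPKM in a group. The rule also covered all Sdh and mt- genes, the restricted isoforms with their general forms, and the largest called changes of each list in each direction. Values are not given here for all of these, for example mt-Nd2, mt-Nd5, Coa6, Coq4 and the single genes of the cell marker lists. Ndufv2, Ndufs1, Uqcrc2, Atp5b, the Atp5g genes, the assembly factors, and genes named for a lost call were chosen after their values were seen. The methods were tested on simulated data. Alternatives changed the pseudocount, filter, scaling, fold threshold, groups fitted, replicate block and libraries.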

Additional observations from a re-analysis of the deposited data

Results flagged for a closer look

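In NL, 38 levels were examined for a library that stood apart from the other 3, and 5 did so, where chance alone gives about 1 in 20. Atp5e was highest in NL 3 at 733 FPKM, the others lying between 687 and 690 FPKM. mt-Atp8 was highest in NL 1 at 105 FPKM, the others lying between 4.37 and 15.6 FPKM. Ndufa4l2 was lowest in NL 1 at 2.42 FPKM, the others lying between 4.32 and 4.65 FPKM. Cox6a2, at 0.133 FPKM, and Cox8b, at 0.251 FPKM, had 1 read each in NL 1 and 0 in the other NL libraries.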

How the results depend on the processing

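The scaling, the fold threshold and single libraries moved the counts. The numbers of members called higher and lower in c-MYC versus NL, 3 and 32, became 18 and 9 at the same FPKM total, 15 and 8 when scaled to reads (chosen after seeing the data), 7 and 10 with quantile normalization and 7 and 68 without the fold threshold. In c-MYC/FOXO1AAA versus NL, 4 and 79 became 8 and 11 at the same total, 8 and 10 scaled to reads, 21 lower with quantile normalization, and 2 higher at a mean of at least 5 FPKM. Between the tumors, 2 and 13 became 5 and 57 without the threshold, 6 lower scaled to reads and 1 higher at a mean of at least 5 FPKM. In these 3 scalings (same total, quantile, reads) the nuclear median was 0.26, -0.057 and 0.25 in c-MYC versus NL and -0.20, -0.41 and -0.18 in c-MYC/FOXO1AAA versus NL, and the mt- median -1.12, -0.99 and -1.13, and -1.15, -1.12 and -1.12. Between the tumors the nuclear median was -0.36 (quantile) and -0.38 (reads), and the mt- median -0.0071 (reads). The rescaling itself adds a constant to each comparison, except in quantile normalization. Leaving out single libraries gave 2 to 3 higher and 25 to 38 lower, 1 to 2 and 7 to 26, and 3 to 4 and 65 to 83 in the 3 comparisons, with nuclear medians of -0.82 to -0.57, -0.72 to -0.42 and -1.45 to -1.14. Same-numbered libraries share only a number (correlation of deviations from -0.0398 to 0.0272), and as a replicate block they gave 2 and 30, 2 and 12, and 4 and 77. Of 971 values of single genes under the alternatives, 865 kept direction and call, 81 lost and 12 gained the call, and 13 turned sign. These were Sdhc in c-MYC versus NL (0.077 at the same total, 0.068 scaled to reads), between the tumors (0.023 quantile, 0.031 reads) and in c-MYC/FOXO1AAA versus NL (0.073 same total, 0.099 reads). Sdhd in c-MYC/FOXO1AAA versus NL turned to 0.23 (same total), 0.055 (quantile) and 0.26 (reads). With quantile normalization mt-Nd1 turned to 0.85 in c-MYC versus NL and 0.40 in c-MYC/FOXO1AAA versus NL, and mt-Co1 to 0.30 and 0.18. The cause of the other changes was not tested. Depth limits Cox6a2, Cox8b and Cox4i2, with few reads a library.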
